A study of Drosophila melanogaster with 18 samples.

Results

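Mitochondria carry their own ribosomes. The ribosomal RNA comes from mitochondrial DNA, but the mitochondrial ribosomal proteins are encoded in the nucleus, made in the cytoplasm and imported. The finished particle, a large and a small subunit, translates the few mitochondrially encoded mRNAs, all of which give subunits of the respiratory chain or of ATP synthase. In flies, mutations in these genes are known to slow growth and development, and mRpL12 is known as a gene required for growth driven by Cyclin D and Cdk4.

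The mitochondrial ribosomal protein genes described here are the 73 protein-coding rows, of 15602 in the table and 13451 protein-coding ones, whose symbol begins with mRpL or mRpS followed by a number. Of these, 47 are named for the large subunit (mRpL) and 26 for the small subunit (mRpS). The symbols are names only, and large-subunit and small-subunit members below are those named mRpL and mRpS. Where each protein lies in the ribosome was not examined. The lowest numbers are mostly those of bacterial ribosomal proteins. Members numbered up to L36 or S21 (42 genes, 28 large and 14 small) are called the low-numbered members below, and the other 31 (19 large and 12 small) the high-numbered members. The division is by number alone and is only an approximate guide to which proteins bacteria also have. Small-subunit proteins whose genes carry other names, such as tko and bonsai, are not among the 73 and are described separately.

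Wing imaginal discs are folded epithelia inside the larva from which the fly's wings and dorsal thorax develop. They were dissected from wild-type OregonR Drosophila larvae 96 h after egg laying. Each of 6 groups held 3 biological replicates, and several discs shared a culture vessel. Uncultured discs were frozen after dissection. Culture was in Grace's insect medium, which in all 5 cultured groups held 5% fetal bovine serum, so that even the group without added hormone had serum. Those groups were no hormone for 4 h, the steroid moulting hormone 20-hydroxyecdysone (20E) at 20 nM for 4 h or 9 h, and bovine insulin at 5 µg/ml for 4 h or 9 h. There was no group without hormone at 9 h, so changes between 4 h and 9 h have no hormone-free reference. Ethanol and acidified water were the stock solvents of 20E and insulin, and the labels name no solvent control.

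Levels are FPKM from polyadenylated RNA, that is, sequenced fragments scaled to transcript length in kilobases and to library size in M fragments. Low values in the table fell on steps that gave an estimated 28.25 to 38.15 M fragments per library. At these depths the lowest estimated count of a member in any library was about 204 fragments (mRpS33). This estimate covers the 71 members found in the annotation used for lengths, not mRpS5 and mRpS34. All 12 wing disc markers examined were detected in all libraries. They summed to between 906 and 970 FPKM in 20E for 4 h and between 966 and 1072 FPKM in 20E for 9 h. In the other groups they summed to between 771 and 861 FPKM. The part of this difference in the results below was not tested. Of 9 larval gut genes, at most 4 reached 1 FPKM in a library, and their summed level ranged from 2.12 to 11635 FPKM. The highest sums were those of uncultured replicate 2 and no hormone replicate 1, so the counts of called members that use these groups are also given without both libraries. Replicates 2 and 3 of insulin at 4 h came next, at 242 and 141 FPKM, and were kept in those counts. Comparisons with insulin at 4 h are thus not free of gut transcripts. Fat body genes summed to at most 1.06 FPKM and haemocyte genes to at most 2.24 FPKM. The 3 tracheal genes were detected in all libraries and summed to between 390 and 424 FPKM in uncultured discs, 505 and 546 without hormone, 308 and 320 with insulin for 4 h, and 371 and 488 with insulin for 9 h. In 20E they summed to between 239 and 281 FPKM over both times. The part of tracheal cells in the results below was not tested. In whole discs, fewer cells of a type and less RNA per cell cannot be told apart.

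All 73 members were transcribed in all groups. The member levels averaged over the 18 libraries were highest for mRpL34 (215 FPKM), mRpL33 (151 FPKM) and mRpL12 (110 FPKM), and lowest for mRpL18 (18.9 FPKM), mRpL10 (22.4 FPKM) and mRpS35 (25.1 FPKM). The median member stood at 51.0, 54.2 and 55.2 FPKM in the uncultured libraries, sorted from low to high. It lay between 39.7 and 42.7 FPKM without hormone, between 37.1 and 37.7 FPKM in 20E for 4 h, and between 31.5 and 34.3 FPKM in 20E for 9 h. With insulin it lay between 45.3 and 49.0 FPKM at 4 h and between 40.9 and 43.8 FPKM at 9 h. The uncultured libraries were thus above all others, the 20E libraries were below all others, and insulin at 9 h overlapped the group without hormone.

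**Figure D1:**
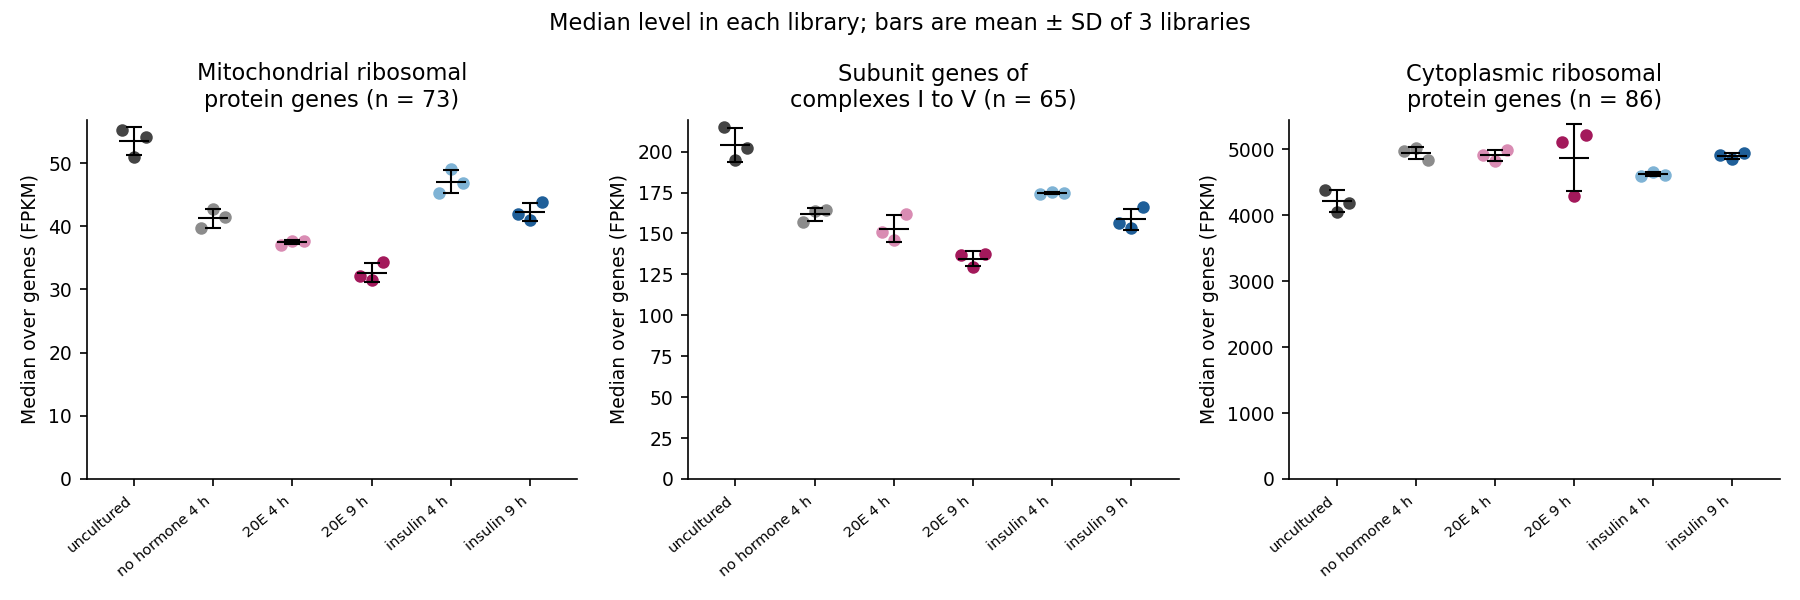
Median FPKM over the genes of each set in each library (points, 3 per group) with the mean and SD of the 3 libraries (bars), for the 73 mitochondrial ribosomal protein genes, 65 tested subunit genes of complexes I to V and 86 tested cytoplasmic ribosomal protein genes. The median mitochondrial ribosomal protein gene was highest in the 3 uncultured libraries and lowest in the 3 libraries of 20E for 9 h, while the median cytoplasmic ribosomal protein gene was lower in uncultured discs than without hormone.

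Counted gene by gene, 51 of the 73 members (69.9%) had their highest group mean in uncultured discs, against 30.4% of the 8524 genes tested. Insulin at 4 h was the highest group for 8 members, no hormone for 8 and insulin at 9 h for 6. No member was highest in either 20E group, where 7.54% of all tested genes were highest at 4 h and 19.9% at 9 h. The lowest group mean was that of 20E at 9 h for 58 members (79.5%), against 19.1% of all tested genes. Without the 2 libraries rich in gut transcripts, a setting added for these counts after the data were seen, 53 members were highest in uncultured discs and 58 lowest in 20E at 9 h.

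**Figure D2:**
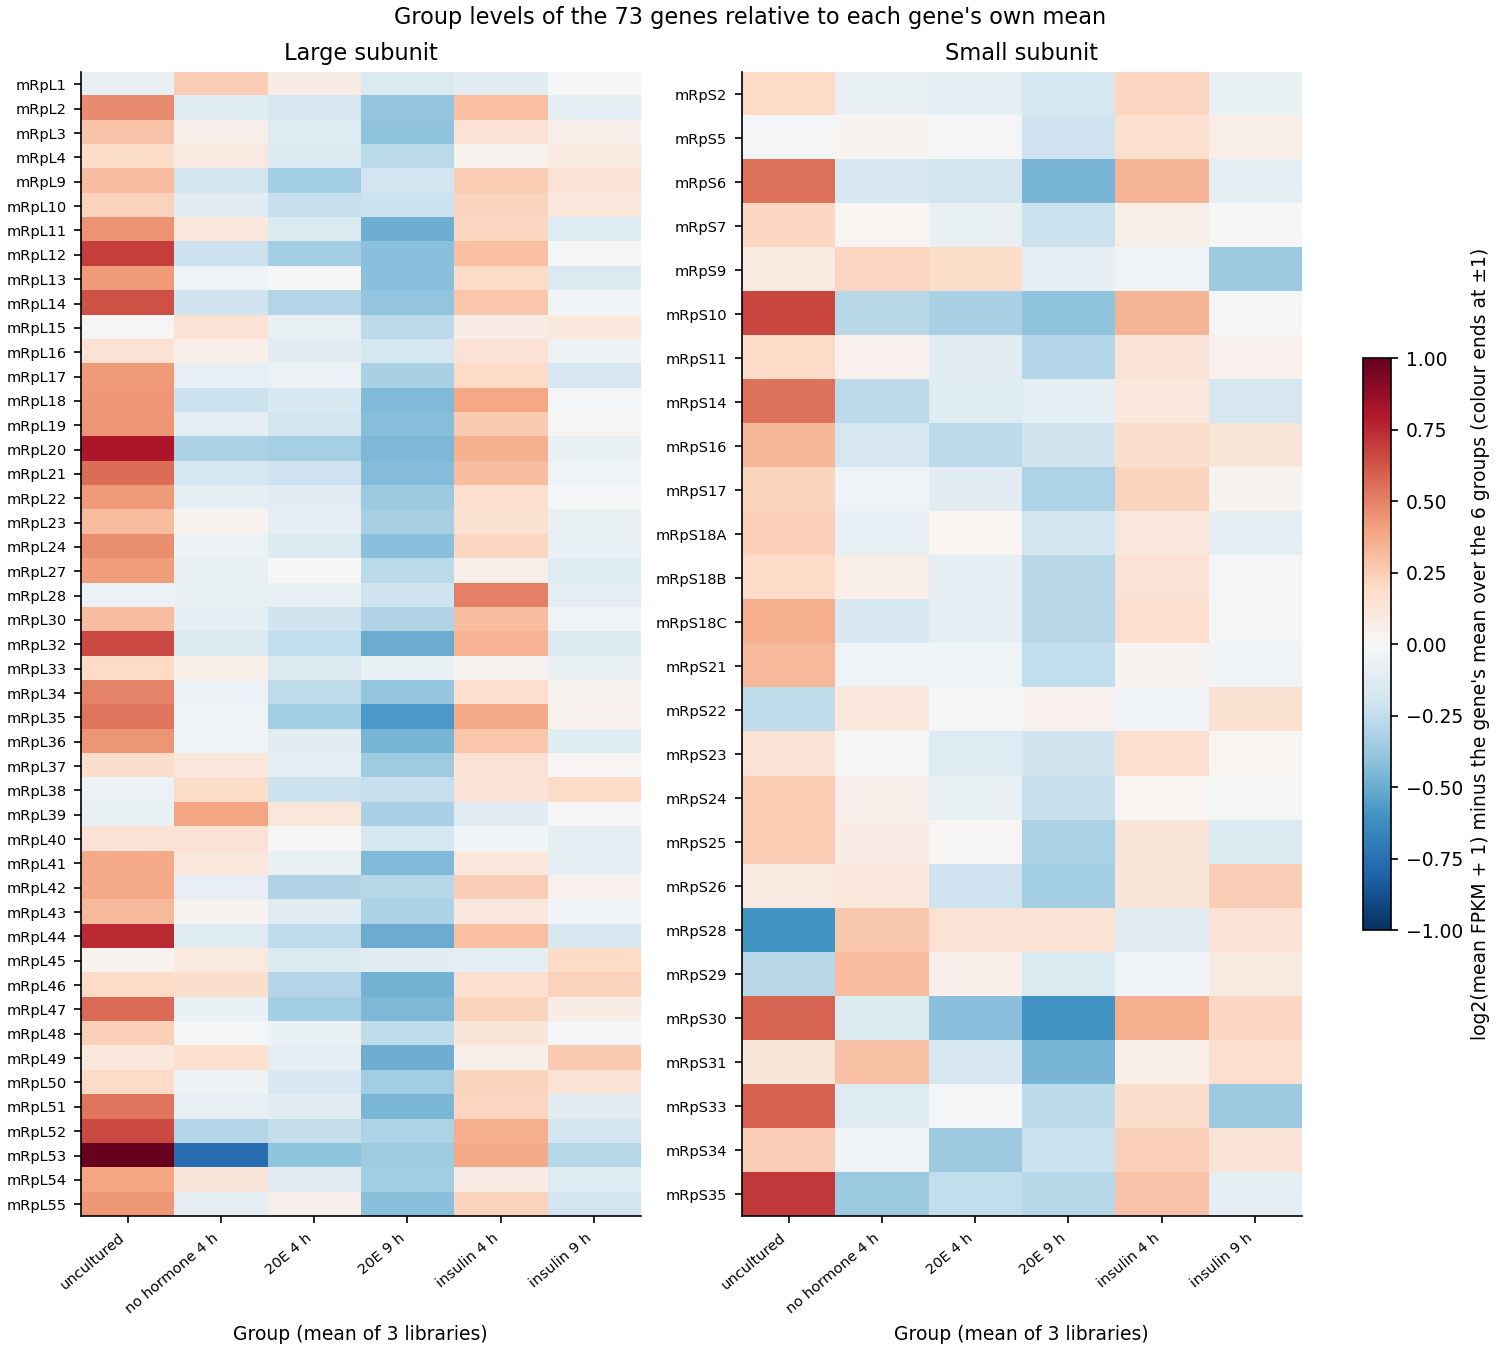
Each row is 1 of the 73 genes and each column a group mean of 3 libraries, coloured by the difference of log2(FPKM + 1) from the gene's own mean over the 6 groups, with large-subunit genes on the left and small-subunit genes on the right. The uncultured column is highest for 51 rows and the column of 20E for 9 h lowest for 58, with mRpS28, mRpS29 and mRpS22 lowest in the uncultured column.

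The first comparison asks what 4 h in medium without added hormone changed. Differences here and below are changes in log2(FPKM + 1), given with the standard error, tested with limma on all genes and called at a Benjamini-Hochberg adjusted p under 0.05. Without hormone, 53 of the 73 members fell relative to uncultured discs and 9 rose, where 35.5% and 35.1% of all tested genes fell and rose. The median member difference was -0.32, a ratio of 0.799 on the FPKM + 1 scale, and the median of all tested genes was close to 0. Without the 2 libraries rich in gut transcripts, 48 members fell and 6 rose.

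mRpL12 encodes the protein of the flexible stalk of the large subunit, where translation factors are bound. It lies on chromosome 3L, 8956791-8957584 (BDGP6.54), and its exons overlap no other annotated gene. Its level was 172, 166 and 175 FPKM in uncultured discs and 89.8, 93.3 and 88.4 FPKM without hormone. The groups were far apart, and the fall was -0.91 ± 0.06 (adjusted p = 3.91e-09).

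mRpL20, whose bacterial relative binds ribosomal RNA early in assembly of the large subunit, lies on chromosome 3L, 13017149-13017867. It went from 90.9, 103 and 100.05 FPKM to 41.1, 45.6 and 46.9 FPKM, a fall of -1.12 ± 0.08 (adjusted p = 5.29e-09). In the small subunit, mRpS35 (chromosome 3L, 2780899-2782105) went from 41.8, 37.8 and 40.1 FPKM to 17.9, 18.9 and 18.5 FPKM. This was a fall of -1.07 ± 0.05 (adjusted p = 7.89e-11), again with every library without hormone below every uncultured one. Neither gene's exons overlap another annotated gene.

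The largest measured fall was that of mRpL53, from 91.6, 85.9 and 85.3 FPKM to 17.3, 21.3 and 16.9 FPKM (-2.19 ± 0.12, adjusted p = 6.31e-10). Its exons lie wholly within those of CG33155 on the same strand, so the fragments of the pair cannot be separated with certainty. CG33155 stood at 10.4, 9.5 and 12.3 FPKM in uncultured discs and at 17.4, 13.99 and 16.2 FPKM without hormone, a rise of 0.53 ± 0.10 (adjusted p = 0.000226). The pair thus moved in opposite directions, and each mRpL53 value below carries this uncertainty.

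A minority of members went the other way. mRpS28, on chromosome 2R, 18614210-18615018, rose from 41.1, 39.3 and 39.9 FPKM to 74.4, 72.7 and 74.9 FPKM (0.87 ± 0.05, adjusted p = 5.77e-10). mRpS29, whose human counterpart DAP3 binds GTP and was first known for a role in cell death, rose from 34.5, 31.1 and 34.5 FPKM to 51.8, 50.2 and 49.9 FPKM (0.59 ± 0.06, adjusted p = 6.86e-07). mRpL39 rose from 76.4, 73.5 and 76.3 FPKM to 112, 98.3 and 104 FPKM (0.46 ± 0.06, adjusted p = 7.11e-06). None of these ranges overlapped between the groups. The other 6 that rose were mRpS22, mRpL1, mRpL38, mRpS31, mRpL15 and mRpS9, by 0.12 to 0.37.

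The exons of mRpS28, mRpS29 and mRpL39 each overlap a gene on the opposite strand, as do those of 41 members in all, and the labels do not say whether counting used the strand. The overlap is 46 of 691 exon bases for mRpS28, 65 of 1440 for mRpS29 and 3 of 1137 for mRpL39. The overlapping genes averaged 5.81, 45.2 and 0.166 FPKM over all libraries, and their part in the rises was not tested. Among the 29 members whose exons overlap no other annotated gene, 21 fell and 1 rose, with a median of -0.32. That member was mRpL38, the only one of the 9 without an overlapping gene. Of the 29, 17 fell and 0 rose without the 2 gut-rich libraries.

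Members differed in how far they moved. The median difference was -0.46 over the 47 large-subunit members (34 fell, 4 rose) and -0.23 over the 26 small-subunit members (19 fell, 5 rose). It was -0.47 over the 42 low-numbered members (34 fell, 3 rose) and -0.24 over the 31 high-numbered ones (19 fell, 6 rose). No test of these differences between subsets was made. Without the 2 gut-rich libraries, 32 large-subunit members fell and 2 rose, 16 small-subunit members fell and 4 rose, 31 low-numbered members fell and 1 rose, and 17 high-numbered members fell and 5 rose. The mRpS18 paralogs, related genes named after 1 small-subunit protein, also differed. mRpS18C fell by 0.52 ± 0.08, mRpS18A by 0.32 ± 0.06 and mRpS18B by 0.12 ± 0.05, with adjusted p-values of 2.88e-05, 0.000133 and 0.0488. The ranges of mRpS18B overlapped between the groups, at 35.7, 35.5 and 32.2 FPKM against 30.6, 32.9 and 31.4 FPKM, and it lost its call without the 2 gut-rich libraries (adjusted p = 0.319).

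**Figure D3:**
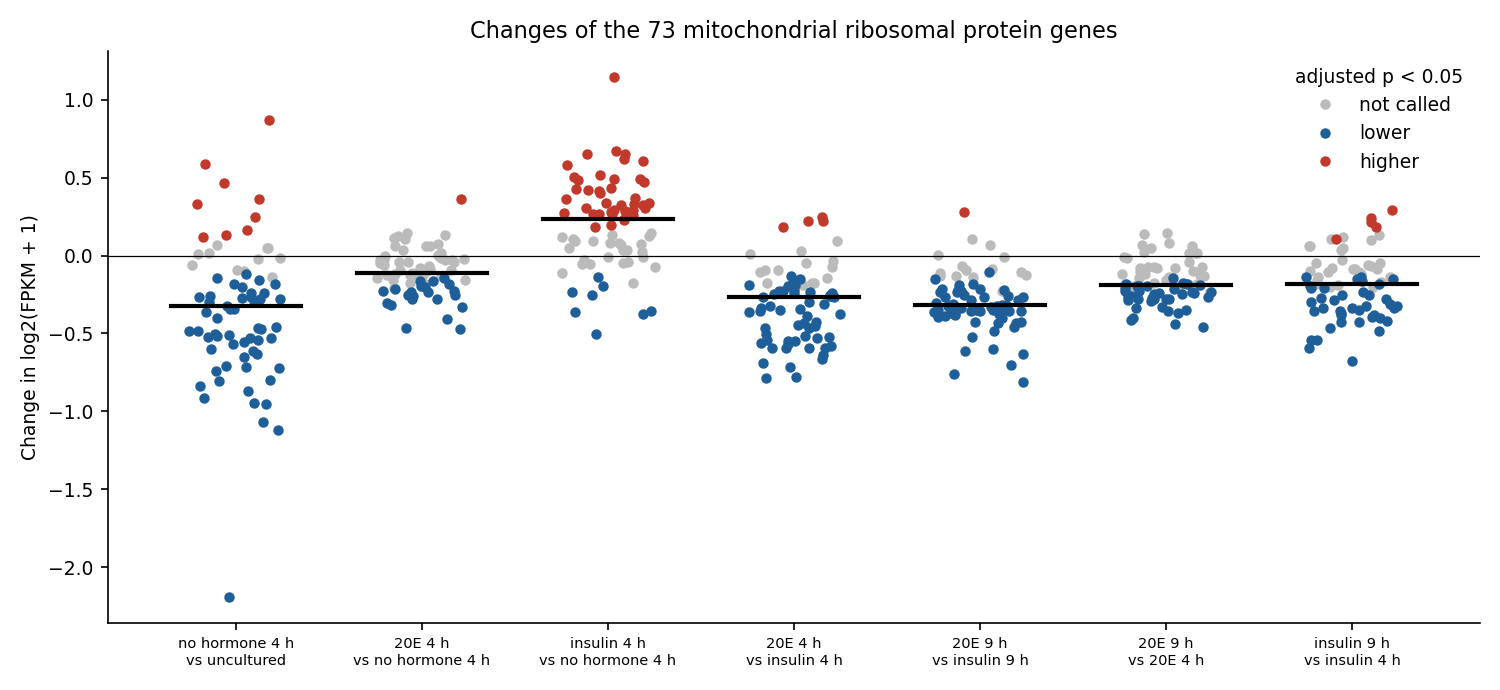
Change of each of the 73 members in log2(FPKM + 1) in 7 comparisons (points), coloured by whether limma called it higher or lower at an adjusted p under 0.05, with the median member as a black line. The median line is below 0 in every comparison except insulin 4 h against no hormone, where it is at 0.23.

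The second comparison asks what insulin adds within 4 h. Against no hormone, 40 members rose and 8 fell, where 30.3% and 27.6% of all tested genes rose and fell. The median member difference was 0.23. Without the 2 gut-rich libraries, 36 rose and 7 fell, with insulin replicates 2 and 3, which also held gut transcripts, kept. Among the 29 members without overlapping exons, 15 rose and 1 fell, and 12 rose and 1 fell without those libraries.

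mRpL20 reached 67.9, 76.3 and 70.1 FPKM with insulin, above all 3 libraries without hormone and below all 3 uncultured ones (0.67 ± 0.08 against no hormone, adjusted p = 2.83e-06). mRpS35 reached 30.1, 29.0 and 29.8 FPKM, again between those groups (0.65 ± 0.05, adjusted p = 4.09e-08). mRpL12 reached 119, 140 and 130 FPKM (0.51 ± 0.06, adjusted p = 3.94e-06). All 3 genes were thus at intermediate levels, and mRpL20 (-0.45 ± 0.08) and mRpL12 (-0.40 ± 0.06) were still lower than in uncultured discs (adjusted p = 0.000192 and 7.25e-05). The value for mRpL53 was 41.2, 41.3 and 43.6 FPKM, a rise of 1.15 ± 0.12 (adjusted p = 1.5e-06), while CG33155 differed by -0.11 ± 0.10 (adjusted p = 0.379).

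The 3 largest falls with insulin were those of members that had risen without hormone. mRpL39 stood at 75.6, 71.2 and 73.6 FPKM (-0.50 ± 0.06, adjusted p = 5.93e-06), mRpS28 at 57.0, 56.9 and 56.8 FPKM (-0.37 ± 0.05, adjusted p = 9.19e-06) and mRpL1, of the stalk beside the exit site of tRNA, at 45.3, 47.8 and 44.5 FPKM (-0.36 ± 0.07, adjusted p = 0.000222). Their libraries without hormone were all higher, at 56.2, 61.6 and 60.1 FPKM for mRpL1. The first and second comparisons share the libraries without hormone and are not independent.

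mRpL28 followed another course. It stood at 60.8, 59.7 and 58.7 FPKM in uncultured discs and at 56.3, 61.3 and 59.7 FPKM without hormone. With insulin for 4 h it reached 90.4, 92.3 and 83.6 FPKM, above all libraries of the other 5 groups, and was 0.56 ± 0.07 above uncultured discs (adjusted p = 1.32e-05). Its exons share 17 of 1170 bases with Gmd, a gene on the opposite strand.

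By subset, the median difference between insulin and no hormone was 0.28 over the low-numbered members (27 rose, 2 fell) and 0.05 over the high-numbered ones (13 rose, 6 fell). It was 0.27 over the large-subunit members (27 rose, 3 fell) and 0.16 over the small-subunit members (13 rose, 5 fell). Without the 2 gut-rich libraries, 23 low-numbered members rose and 2 fell, 13 high-numbered ones rose and 5 fell, 25 large-subunit members rose and 3 fell, and 11 small-subunit members rose and 4 fell. Among the mRpS18 paralogs, mRpS18C (0.33 ± 0.08, adjusted p = 0.00247) and mRpS18A (0.20 ± 0.06, adjusted p = 0.00831) rose, and mRpS18B differed by 0.07 ± 0.05 (adjusted p = 0.242). mRpS18A lost its call without the 2 gut-rich libraries (0.13, adjusted p = 0.0596).

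**Figure D4:**
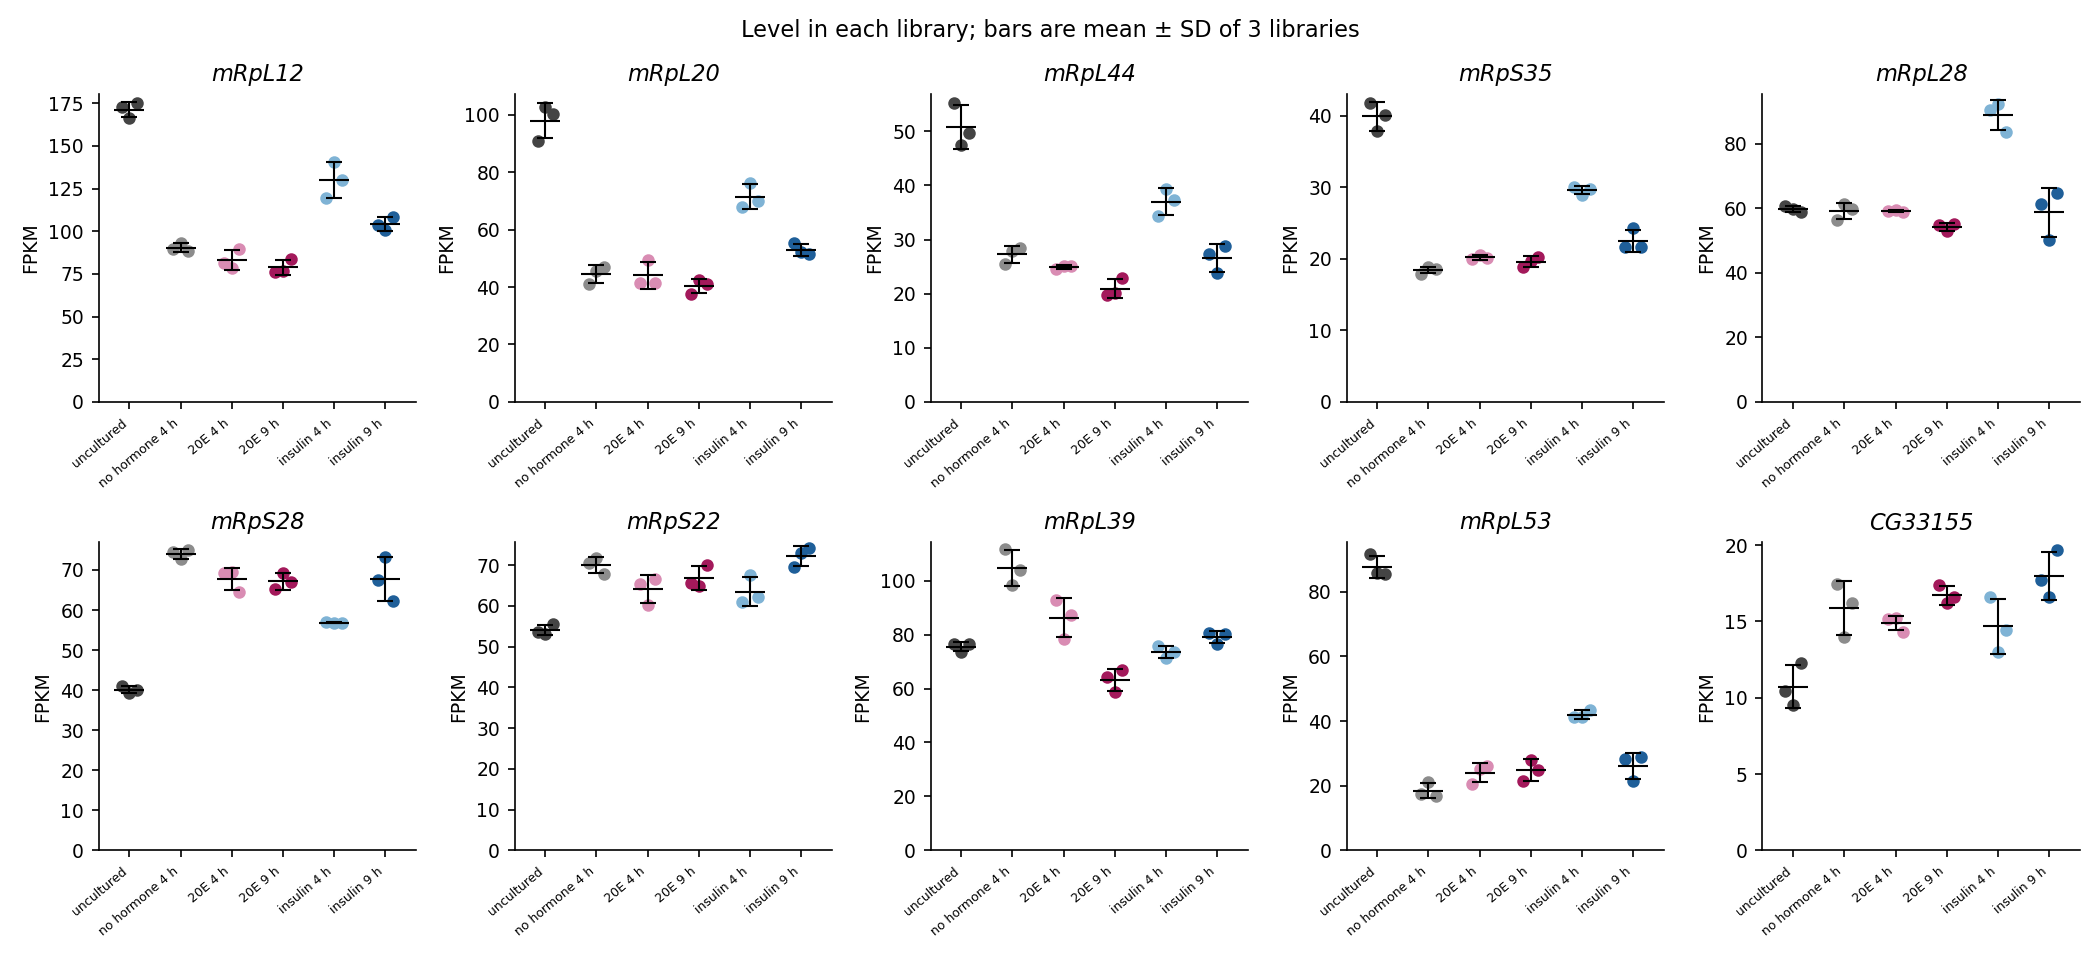
FPKM in each library (points) with the mean and SD of 3 libraries (bars) for 9 members and for CG33155, which shares its exons with mRpL53. mRpL12, mRpL20, mRpL44 and mRpS35 were highest in uncultured discs and intermediate with insulin for 4 h, mRpL28 was highest with insulin for 4 h, and mRpS28 and mRpS22 were lowest in uncultured discs.

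The same question asked of 20E gave a smaller and opposite result. Against no hormone, 23 members fell and 1 rose after 4 h in 20E, where 15% and 15.7% of all tested genes fell and rose. The median member difference was -0.11. Without 20E replicate 2, 14 members fell and 0 rose, so the size of the count rests in part on that library. Without the 2 gut-rich libraries, 23 fell and 0 rose.

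The largest falls were those of high-numbered members. mRpL46 went from 44.7, 44.7 and 42.6 FPKM to 32.1, 29.2 and 33.2 FPKM (-0.47 ± 0.06, adjusted p = 5.43e-05). mRpS31 went from 39.6, 43.0 and 40.3 FPKM to 31.1, 28.0 and 29.3 FPKM (-0.46 ± 0.04, adjusted p = 8.75e-07). mRpL38 went from 46.5, 45.2 and 47.6 FPKM to 37.1, 30.5 and 37.2 FPKM (-0.41 ± 0.07, adjusted p = 0.000552). In all 3 the groups did not overlap, and mRpL46 and mRpL38 share no exon bases with another gene.

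Of the high-numbered members, 15 of 31 fell and 1 rose, and of the low-numbered ones 8 of 42 fell and 0 rose. The share of low-numbered members that fell was close to the 15% of all tested genes, and the share of high-numbered ones was well above it. The difference between these subsets was not tested. In the fit without the 2 gut-rich libraries, 15 high-numbered and 8 low-numbered members fell and 0 rose. The single rise was that of mRpL53, at 20.7, 25.3 and 26.2 FPKM (0.36 ± 0.12, adjusted p = 0.0352), and its range overlapped that without hormone. mRpL53 lost its call without the filter on low values and in a fit of only the groups compared (adjusted p = 0.0598 and 0.0877). It also lost its call without no hormone replicate 1 or 3, 20E replicate 2 or 3, or the 2 gut-rich libraries (adjusted p = 0.105 to 0.131). mRpL12, at 81.4, 78.3 and 89.5 FPKM, differed by -0.12 ± 0.06 and was not called (adjusted p = 0.138). Of the mRpS18 paralogs, mRpS18B fell (-0.17 ± 0.05, adjusted p = 0.023), and neither mRpS18A (0.11 ± 0.06) nor mRpS18C (0.06 ± 0.08) was called. mRpS18B lost its call without no hormone replicate 2 or 20E replicate 1 or 2, and in a fit of only the groups compared (adjusted p = 0.0555 to 0.0959).

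Set against each other directly at 4 h, the hormones differed for most members. In 20E, 54 members were lower than in insulin and 4 were higher, where 29.2% and 27.6% of all tested genes were lower and higher. The median member difference was -0.27. Gut genes summed to 242 and 141 FPKM in insulin replicates 2 and 3, and to at most 4.16 FPKM in the 20E libraries. The part of gut cells in this comparison was not tested. mRpS30, at 36.1, 35.4 and 38.6 FPKM in 20E and 60.4, 67.5 and 63.4 FPKM in insulin, differed by -0.78 ± 0.07 (adjusted p = 1.87e-07). mRpL35, at 21.9, 23.8 and 23.6 FPKM in 20E and 36.4, 42.0 and 37.4 FPKM in insulin, differed by -0.71 ± 0.07 (adjusted p = 9.54e-07). Both were well separated between the hormones. mRpL12 differed by -0.64 ± 0.06 (adjusted p = 5.58e-07), and mRpL53 by -0.79 ± 0.12 (adjusted p = 6.44e-05). The 4 members that were higher in 20E were mRpS28 (0.25 ± 0.05), mRpL39 (0.22 ± 0.06), mRpS9 (0.22 ± 0.04) and mRpL1 (0.18 ± 0.07), and the ranges of mRpL1 overlapped. mRpL1 lost its call without replicate 1 or 3 of either hormone, and in a fit of only the groups compared (adjusted p = 0.0680 to 0.128).

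At 9 h the picture was alike, in libraries that the comparison at 4 h does not use. In 20E, 58 members were lower than in insulin and 1 was higher, where 26.4% and 26.6% of all tested genes were lower and higher. The median member difference was -0.32. mRpS30 stood at 32.0, 30.7 and 33.4 FPKM in 20E and at 59.0, 51.3 and 61.2 FPKM in insulin (-0.81 ± 0.07, adjusted p = 1.52e-07). mRpL49 stood at 44.7, 40.5 and 52.4 FPKM against 74.9, 77.9 and 80.6 FPKM (-0.76 ± 0.07, adjusted p = 8.25e-07). mRpL46 stood at 26.7, 30.1 and 26.5 FPKM against 44.3, 45.6 and 47.4 FPKM (-0.70 ± 0.06, adjusted p = 4.31e-07). For all 3 genes the 20E libraries lay below every insulin library.

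The exception at 9 h was mRpS9, at 56.8, 52.8 and 53.9 FPKM in 20E and 44.4, 46.8 and 43.1 FPKM in insulin (0.28 ± 0.04, adjusted p = 6.59e-05). It was higher in 20E at 4 h too. Of the 54 members lower in 20E at 4 h, 48 were also lower at 9 h, which is 88.9% of the first list and 82.8% of the second. Over all tested genes the corresponding shares were 61.7% and 68.2%. These shares are not directly comparable, because 58 of the 73 members but only 26.4% of all tested genes were lower at 9 h. mRpL12 (-0.40 ± 0.06), mRpS18C (-0.27 ± 0.08) and mRpS18B (-0.26 ± 0.05) were lower at 9 h as at 4 h, and mRpS18A was not called at either time.

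Between 4 h and 9 h, more members fell than rose in both hormones. Over the same time the 4 muscle genes examined, of which 2 to 4 were detected in a library, went from a summed 15.3 to 22.3 FPKM to 25.7 to 48.5 FPKM in 20E, and from 21.5 to 25.8 FPKM to 40.5 to 46.6 FPKM in insulin. The 3 genes of disc myoblasts, the precursors of flight muscle in the disc, were detected in all libraries and went from 37.9 to 53.6 FPKM to 56.4 to 58.8 FPKM in 20E, and from 34.9 to 40.3 FPKM to 51.3 to 57.4 FPKM in insulin. Both sums were thus higher at 9 h without overlap, and their part in the changes of the members was not tested. In 20E, 37 fell and 0 rose, where 11.7% and 11.2% of all tested genes fell and rose. The median member difference was -0.19. Leaving out single libraries brought the count of called members to between 23 and 37, with counts of 24 or fewer without replicate 1 or 3 at 4 h or replicate 1 or 2 at 9 h. mRpL55 went from 36.5, 48.2 and 50.02 FPKM to 33.2, 31.2 and 32.1 FPKM (-0.46 ± 0.10, adjusted p = 0.00429). mRpL39 went from 92.7, 78.5 and 87.3 FPKM to 64.3, 58.7 and 66.8 FPKM (-0.44 ± 0.06, adjusted p = 0.000206). mRpL13 went from 42.3, 41.7 and 41.9 FPKM to 29.1, 30.7 and 34.3 FPKM (-0.41 ± 0.07, adjusted p = 0.00133). The groups did not overlap in any of these, though 1 library of mRpL55 at 4 h lay close to those at 9 h. The exons of mRpL13 overlap those of CG10602 on the same strand, which fell by 0.19 ± 0.04 (adjusted p = 0.00293).

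In insulin, 39 members fell and 5 rose between 4 h and 9 h, where 23.3% and 21.3% of all tested genes fell and rose, and the median member difference was -0.18. mRpL28 returned to 61.3, 50.1 and 64.7 FPKM (-0.60 ± 0.07, adjusted p = 1.67e-05), levels that overlap those of uncultured discs. mRpL52 went from 50.8, 56.6 and 55.4 FPKM to 39.9, 35.3 and 35.7 FPKM (-0.54 ± 0.08, adjusted p = 0.000131). mRpL53 went to 28.2, 21.5 and 28.8 FPKM (-0.67 ± 0.12, adjusted p = 0.000463), and CG33155 rose by 0.28 ± 0.10 (adjusted p = 0.0335). All 3 members were lower in each library at 9 h than at 4 h. The 5 that rose were mRpL45 (0.29 ± 0.06), mRpS28 (0.24 ± 0.05), mRpL49 (0.21 ± 0.07), mRpS22 (0.18 ± 0.05) and mRpS31 (0.11 ± 0.04), with adjusted p-values of 0.00116, 0.000834, 0.0269, 0.00652 and 0.0424. All 5 are high-numbered members. mRpS31 lost its call without the filter on low values (adjusted p = 0.0507) and when any 1 of the 6 libraries was left out (adjusted p = 0.0591 to 0.106). mRpL49 lost its call without replicate 2 or 3 at either time (adjusted p = 0.0596 to 0.0882).

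Of the 37 members that fell with time in 20E, 24 (64.9%) also fell in insulin, where they made up 61.5% of the 39. Over all tested genes the shares were 47.9% and 24.2%, and these comparisons share no library. Falls were also more frequent among the members, at 37 and 39 of 73, than among all tested genes, at 11.7% and 23.3%. The shares of overlap are therefore not directly comparable. The test of the difference between the changes with time in 20E and in insulin called 8 members in each direction, where 13.5% and 13% of all tested genes were called. The member counts are close to that background, and the median member difference was close to 0. mRpL49 changed from 60.1, 56.4 and 65.6 FPKM to 44.7, 40.5 and 52.4 FPKM in 20E, and from 68.0, 67.0 and 65.9 FPKM to 74.9, 77.9 and 80.6 FPKM in insulin. Every 20E library at 9 h lay below those at 4 h and every insulin library at 9 h above those at 4 h, and the difference of the changes was -0.62 ± 0.10 (adjusted p = 0.000748).

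The remaining comparisons set each hormone group against uncultured discs, and they share the uncultured libraries with each other and with the first comparison. In 20E, 62 members were lower and 4 higher at 4 h, with a median of -0.45, where 33.1% and 34.2% of all tested genes were lower and higher. At 9 h, 67 were lower and 2 higher, with a median of -0.64, where 34.4% and 36.9% of all tested genes were. mRpL44, whose human counterpart has a domain related to RNase III, stood at 55.2, 47.4 and 49.7 FPKM in uncultured discs and 19.7, 20.1 and 22.9 FPKM in 20E at 9 h (-1.24 ± 0.08, adjusted p = 2.54e-09). The 2 members that were higher at 9 h were mRpS28 (0.73 ± 0.05) and mRpS22 (0.30 ± 0.05). With the 2 gut-rich libraries left out, 63 were lower and 4 higher at 4 h, and 66 lower and 2 higher at 9 h.

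In insulin, 33 members were lower than in uncultured discs and 5 higher at 4 h, with a median of -0.16, where 26.7% and 25.8% of all tested genes were lower and higher. At 9 h, 53 were lower and 5 higher, with a median of -0.35, where 33.2% and 34.4% of all tested genes were. Quantile normalization gave medians of -0.10 at 4 h and -0.23 at 9 h. Without the 2 gut-rich libraries, 32 were lower and 4 higher at 4 h, and 52 lower and 4 higher at 9 h. mRpS33 stood at 55.2, 51.0 and 57.1 FPKM in uncultured discs and 30.1, 27.8 and 25.1 FPKM in insulin at 9 h (-0.95 ± 0.07, adjusted p = 3.08e-08). mRpS28 and mRpS22 were higher than in uncultured discs in every cultured group. mRpS22 stood at 53.7, 53.2 and 55.4 FPKM in uncultured discs and at 60.2 FPKM or more in all 15 cultured libraries.

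Over the 6 groups, the members spanned a range of behaviours. The ratio of the highest to the lowest group mean was 1.25 for mRpL16, which stood between 42.6 and 62.8 FPKM in all libraries. It was 2.42 for mRpL20, 2.43 for mRpL44 and 4.73 for mRpL53.

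Genes that act beside the mitochondrial ribosome were compared in the same fits. The small-subunit genes tko (mitochondrial protein S12) and bonsai (S15) are also part of the particle. tko stood at 53.5, 44.8 and 47.7 FPKM in uncultured discs, 33.5, 36.2 and 33.7 FPKM without hormone and 46.3, 45.3 and 49.7 FPKM with insulin for 4 h. It fell by 0.48 ± 0.07 without hormone and rose by 0.44 ± 0.07 with insulin (adjusted p = 2.6e-05 and 0.000103). bonsai stood at 72.5, 68.8 and 71.5 FPKM in uncultured discs, 36.4, 42.5 and 39.6 FPKM without hormone and 48.3, 57.5 and 54.2 FPKM with insulin. It fell by 0.83 ± 0.07 and rose by 0.42 ± 0.07 (adjusted p = 2.92e-08 and 6.37e-05). In both genes the group without hormone lay below the other 2.

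Nuclear genes were compared for respiratory complexes I to V, of which all but complex II contain products of mitochondrial translation. Without hormone, 63 of 65 tested (96.9%) were lower than in uncultured discs and 0 were higher (median -0.65). Over all tested genes these shares were 35.5% and 35.1%. With insulin for 4 h, 42 of the 65 (64.6%) rose against no hormone and 2 (3.1%) fell (median 0.23). Of all tested genes, 30.3% rose and 27.6% fell. In 20E for 4 h, 6 rose (9.2%) and 5 fell (7.7%), below the 15.7% and 15% of all tested genes. For complexes IV and V, 9 of 9 and 13 of 13 genes fell without hormone, and all of them rose with insulin. When the 2 gut-rich libraries were left out, 62 of the 65 fell and 0 rose without hormone, and 42 rose and 2 fell with insulin. Of 11 tested genes for import of proteins into mitochondria, 11 fell without hormone and 11 rose with insulin, also without those libraries. Hsc70-5, the mitochondrial Hsp70 of that machinery, fell by 1.36 ± 0.04 (adjusted p = 3.63e-12).

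For other parts of the mitochondrial translation apparatus, the counts in each direction were near the shares of all tested genes that fell (35.5%) and rose (35.1%) without hormone. Of 8 translation factor genes, 3 fell and 3 rose (37.5% each way), from EfTuM, the elongation factor Tu gene (-0.96 ± 0.07, adjusted p = 1.2e-08), to CG12736, another gene of that family (0.55 ± 0.05, adjusted p = 1.98e-07). Of 15 mitochondrial aminoacyl-tRNA synthetase genes, which charge the tRNAs, 4 fell and 4 rose (26.7% each way). Of 11 genes for transcription and maintenance of mitochondrial DNA, 4 fell (36.4%) and 3 rose (27.3%), with TFAM, the packaging protein of that DNA, at -0.59 ± 0.07 and the RNA polymerase gene mtRNApol at 0.37 ± 0.05 (adjusted p = 2.15e-06 and 1.09e-05).

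Without hormone, cytoplasmic ribosomal protein genes went the other way from their mitochondrial counterparts, in numbers that depended on the normalization. In that comparison, 77 of 86 tested were higher than in uncultured discs and 2 lower (median 0.23), where 35.1% and 35.5% of all tested genes were. Quantile normalization left 24 higher and 3 lower (median 0.03), and leaving out the 2 gut-rich libraries left 45 higher and 2 lower. With insulin for 4 h, 1 rose and 7 fell against no hormone (1.2% and 8.1%), and 78 were not called. These shares were below the 30.3% and 27.6% of all tested genes that rose and fell. Under quantile normalization 47 mitochondrial ribosomal protein genes still fell without hormone and 9 rose (median -0.23), and 39 rose and 8 fell with insulin. FPKM are shares of a library, and the cytoplasmic ribosomal protein genes summed to between 381840 and 413250 FPKM in uncultured discs and between 454810 and 469990 FPKM without hormone. The part of that shift in the values of other genes was not tested beyond these rescalings.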

How the data were processed

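The authors deposited 1 table of FPKM values per gene and replicate. Per the submitters' processing notes, cutadapt, TopHat2 and Cufflinks were used with build BDGP5; versions, annotation release and use of the strand in counting are not given in the sources used here. Per the labels' protocols, poly(A) RNA was made into directional libraries. Column names quoted in the sample descriptions mapped columns to samples.

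Tested genes reached 1 FPKM in 3 or more of the 18 libraries (8524 of 15602). All 73 members passed. log2(FPKM + 1) was fitted by group with limma 3.58.1 in R 4.3.3 (mean-variance trend), two-sided, and p-values were adjusted by Benjamini-Hochberg over all tested genes within each of 12 comparisons. This scale understates changes of low genes. An exact permutation test of 3 against 3 libraries cannot go below p = 0.1. The fit was tested on simulated data. Depth was estimated from steps of low FPKM values, of which 85.6% to 91.0% per library lay within 0.1 of a whole fragment. It entered no test.

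Members and lists were chosen with earlier results of these data known. Per comparison, the 3 largest called rises and falls were named, with members called against the majority, the highest and lowest expressed members, mRpL12 and the mRpS18 paralogs. Further risers without hormone and mRpL16 were named, and the subset without exon overlap formed, after values were seen. Gene positions and overlaps come from the Ensembl 115 annotation (BDGP6.54), in which 71 of the 73 identifiers matched (not mRpS5 and mRpS34). Replicate numbers in the titles did not pair the libraries. Plots used matplotlib 3.10.9.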

Additional observations from a re-analysis of the deposited data

Results flagged for a closer look

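The change between 4 h and 9 h differed between 20E and insulin for 16 members by limma's test of the difference itself. Of these, 8 had the higher change in 20E and 8 the lower, which is 10.96% of the 73 each way, where 13.5% and 13% of all tested genes were called. The count is thus no larger than that background. The difference (change in 20E minus change in insulin, in log2(FPKM + 1)) was 0.72 for mRpL53, whose reads are not separable with certainty from those of CG33155, 0.47 for mRpL28 and 0.47 for mRpL52, all of which fell in insulin. It was -0.62 for mRpL49 and -0.40 for mRpS31, which rose in insulin. Their means in 20E were lower at 9 h than at 4 h, at 45.9 against 60.7 FPKM for mRpL49 and 23.8 against 29.5 FPKM for mRpS31. The rise of mRpS31 in insulin lost its call when any library of that comparison was left out. The difference was -0.55 for mRpL39, which fell in 20E.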

How the results depend on the processing

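Counts of called members kept within 1.5 times of the reported count in all but a few alternatives, and no called change of a named member turned its direction. Of the named changes recomputed under the settings other than leaving out 1 library, 987 kept their side of the threshold, 27 lost their call and 9 gained one. With 1 library left out at a time, 721 kept their side, 46 lost their call and 7 gained one. Array weights gave 38 called members for 20E against no hormone at 4 h (34 lower, 4 higher), 26 members and 3719 genes for the difference between the changes with time, and 3606 genes for 20E at 9 h against 4 h. Fitting only the groups compared left 18 members and 1127 genes in 20E at 9 h against 4 h; that fit has fewer libraries. The cause of the other shifts was not tested.

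Leaving out 1 library at a time called 55 to 60 members for no hormone against uncultured, 14 to 24 for 20E and 45 to 49 for insulin against no hormone, 53 to 57 and 51 to 60 for 20E against insulin at 4 h and 9 h, 23 to 37 and 34 to 48 for 9 h against 4 h in 20E and insulin, and 11 to 17 for the difference between those changes. Against uncultured discs the ranges were 65 to 68 (20E, 4 h), 67 to 68 (20E, 9 h), 30 to 37 (insulin, 4 h) and 54 to 58 (insulin, 9 h).

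With the replicate number as a block, 61 members were called for no hormone against uncultured, 23 for 20E and 48 for insulin against no hormone. The numbers are shared labels: deviations of same-numbered libraries correlated at -0.447 to 0.314, and 7 of 18 libraries correlated best with their own number. Under the block mRpS18B lost its call without hormone (adjusted p = 0.050028), and mRpL12 gained one for the difference between the changes with time (adjusted p = 0.041968). Over the 71 members with an estimated count, the median count in a library was about 772 fragments. The part of counting error in small changes was not tested, and 3 libraries per group limit their precision.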

Other observations

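Genes known in flies or mammals as regulators of growth or of mitochondrial gene expression were measured in the same libraries. srl, the fly counterpart of the mammalian coactivator PGC-1, stood at 48.3, 46.7 and 47.9 FPKM in uncultured discs and at 16.5, 16.1 and 16.0 FPKM without hormone. With insulin for 4 h it stood at 31.6, 31.3 and 31.3 FPKM, between those groups and with no overlap. It fell by 1.501 ± 0.06 without hormone and rose by 0.91 ± 0.06 with insulin and by 0.33 ± 0.06 with 20E (adjusted p = 2.01e-11, 1e-08 and 0.00041). dm, the fly Myc gene, stood at 67.5, 69.1 and 72.1 FPKM in uncultured discs and lower, at 54.6, 50.6 and 51.9 FPKM, without hormone. It stood at 89.5, 95.6 and 102 FPKM in 20E for 4 h and 56.6, 55.8 and 55.5 FPKM in insulin for 4 h. Against no hormone, it rose by 0.86 ± 0.08 in 20E (adjusted p = 2.9e-06) and differed by 0.10 ± 0.08 in insulin (adjusted p = 0.35). It was 0.76 ± 0.08 higher in 20E than in insulin (adjusted p = 2.9e-06).

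ewg, the counterpart of mammalian NRF-1, went from 17.8, 19.9 and 20.1 FPKM in uncultured discs to 41.5, 42.2 and 37.4 FPKM without hormone (1.03 ± 0.06, adjusted p = 1.35e-09), and fell by 0.56 ± 0.06 with insulin. Dref fell by 0.65 ± 0.06 and Cdk4 by 0.54 ± 0.04 without hormone, and with insulin they rose by 0.39 ± 0.06 and 0.34 ± 0.04. CycD fell by 0.20 ± 0.04 without hormone and by 0.12 ± 0.04 with insulin. Ets97D, the counterpart of a subunit of mammalian GABP, rose by 0.18 ± 0.04 without hormone. All 37 rows of mitochondrially encoded genes are listed at 0 in every library and were not analysed.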
